A study of Mus musculus with 16 samples.

Results

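Cdkn1c (p57), an inhibitor of cyclin-dependent kinases, was set beside 3 genes of proliferation: Ccne2 (cyclin E2), Cenpf (centromere protein F) and Mki67 (Ki-67). The 4 genes were picked from the 3071 genes of the authors' deposited comparison of beta-glucan-trained with control macrophages, a table that holds only genes with an adjusted p under 0.05 among 17130 tested. They were thus chosen by the measured difference between the groups, so that difference is described below and carries no test. The question was whether, library by library, the inhibitor tracks the proliferation genes.

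All libraries were made from bone marrow-derived macrophages of C57BL/6 mice, which the series design calls aged, and no young group is part of it. Bone marrow cells were cultured for 7 days in medium with M-CSF (10 ng/mL), which drives precursors towards macrophages and keeps them dividing. The 8 beta-glucan libraries (numbered 5, 6, 7, 8, 9, 10, 12 and 13) came from cells then given 10 µg/mL of beta-glucan from the yeast C. albicans for 24 hours, and the 8 control libraries (2, 3, 5, 7, 9, 10, 12 and 13) from cells given PBS instead. Both were rested for 7 days before RNA was taken, a schedule used to study trained immunity, the altered state that innate cells keep after a first stimulus.

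As background, a cell commits to division when cyclin-dependent kinases, switched on by their cyclins, release E2F factors from the pocket proteins. Cyclin E2 binds CDK2 at the entry into S phase, whereas Cenpf and Mki67 belong to the genes made late in the cycle: Cenpf binds kinetochores and the nuclear matrix, and Ki-67 coats mitotic chromosomes and is the usual marker of dividing cells. Cdkn1c, with Cdkn1a (p21) and Cdkn1b (p27), is a Cip/Kip inhibitor that binds cyclin-CDK complexes. It is an imprinted gene expressed mainly from the maternal copy and is known for keeping blood stem cells quiescent.

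The promoters of Mki67 and Cenpf are shown because these are the 2 of the 4 genes with an entry in the RefSeq promoter table (build GRCm38.p6), and because their levels moved together in both groups, as described below. Each run covers 250 bases before to 50 bases after the annotated start, 5′ to 3′ on the coding strand. Capitals mark the letters TTTGAA, the cell cycle homology region (CHR) at which the DREAM and MuvB complexes bind late cell cycle genes, and the CCAAT box, written ATTGG where it lies on the opposite strand. The Mki67 window is chr7:135716330-135716629 and the Cenpf window chr1:189688037-189688336, both on the minus strand.

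Mki67: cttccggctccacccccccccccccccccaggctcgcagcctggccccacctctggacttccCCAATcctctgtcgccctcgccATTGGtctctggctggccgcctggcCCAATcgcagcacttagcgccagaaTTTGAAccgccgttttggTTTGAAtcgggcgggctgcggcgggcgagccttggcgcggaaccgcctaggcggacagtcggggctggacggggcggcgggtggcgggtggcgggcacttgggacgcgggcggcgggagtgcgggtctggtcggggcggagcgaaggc

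Cenpf: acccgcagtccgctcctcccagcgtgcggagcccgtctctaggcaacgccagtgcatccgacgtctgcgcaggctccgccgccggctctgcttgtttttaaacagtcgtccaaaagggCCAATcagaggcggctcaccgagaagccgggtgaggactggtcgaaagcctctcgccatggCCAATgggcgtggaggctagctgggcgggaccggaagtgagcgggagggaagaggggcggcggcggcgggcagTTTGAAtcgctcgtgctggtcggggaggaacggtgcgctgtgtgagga

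The Mki67 window held TTTGAA starting 116 and 98 bases before the RefSeq start of the gene and CCAAT at 188, 166 (opposite strand) and 141 bases before it. The Cenpf window held TTTGAA at base 3, counting the start base as 1, and CCAAT at 132 and 71 bases before it. The GC box GGGCGG was found 4 times in the Mki67 window and 2 times in the Cenpf window, overlapping neither of the other motifs. Of all 32851 promoters of that length, 19.2% held TTTGAA or TTCGAA on either strand, 37.4% held CCAAT and 35.7% held GGGCGG. The E2F cores searched (TTTCCCGC, TTTCGCGC, TTTGCCGC and TTTGGCGC, both strands) were in 2.3% of all promoters and in neither window. Among the 12 mitosis genes of the deposited table, 11 had an entry, and TTTGAA or TTCGAA was in 9 of them, CCAAT in 8, GGGCGG in 8 and an E2F core in 2. A gene was counted if any of its promoters held the letters, whereas the shares above are of single promoters, so these are unlike measures. These matches describe letters and were not tested for binding.

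Before the gene results, the libraries themselves have to be described. Effective library sizes, from the deposited size factors and FPKM scale, were 16301326 to 19467288 reads in beta-glucan and 15492864 to 20738976 in control libraries, and reads on the listed genes were 4382665 to 5415917 in beta-glucan and 4587031 to 5600727 in control libraries. On the first principal component of 2378 listed genes (63.3% of their variance, with 1 set at the mean of the beta-glucan and 0 at the mean of the control libraries), beta-glucan libraries lay at 0.70 to 1.29, controls 12 and 13 at 0.55 and 0.49 and the other controls at -0.47 to 0.14, with controls 2 and 5 at the low end. Controls 12 and 13 therefore stood apart from their group, and controls 2 and 3 had the lowest Cdkn1c of all libraries, so the calls below were also made without each pair. Replicates of a group differed by more than sampling noise (chi-square divided by its degrees of freedom was 11.3 to 208.5), so none was counted as a repeat. For the marker counts that follow, 17.9% of all tested genes were listed, 6.3% as higher and 11.6% as lower. Of 12 macrophage markers 7 were listed, 6 lower and 1 (Cd14) higher in beta-glucan libraries. They were abundant, with a summed FPKM of 1644.0 to 1894.6 in beta-glucan and 1909.0 to 3323.7 in control libraries (Csf1r and C1qa the most abundant). Markers of other cells differed in range as well: the 2 listed osteoclast genes of 10 (Atp6v0d2, Itgb3) summed to 75.7 to 140.6 FPKM in beta-glucan and 13.96 to 103.6 in control libraries. The single listed markers of neutrophils (Mmp8, 1.08 to 2.46 FPKM in beta-glucan against 2.34 to 7.15 in control), fibroblasts (Acta2, 0.438 to 2.502 in beta-glucan against 0.948 to 4.68 in control) and endothelium (Kdr, 0.430 to 0.955 in beta-glucan against 0.186 to 0.540 in control) were low, and the myeloid progenitor, dendritic cell, lymphocyte, erythroid and mast cell lists had none in the table. The table holds only genes that differed, so the levels of unlisted markers are not known here and purity cannot be read from these lists. In bulk RNA a smaller share of cells of a type and less RNA per cell cannot be told apart, and the part of the marker shifts in the results below was not tested.

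Cdkn1c, the inhibitor, was far higher in the beta-glucan libraries. Its normalized count (reads divided by the deposited size factor) was 339.5, 559.2, 1075.2, 352.7, 497.4, 596.1, 374.3 and 261.6 in beta-glucan libraries 5, 6, 7, 8, 9, 10, 12 and 13. In control libraries 2, 3, 5, 7, 9, 10, 12 and 13 it was 6.95, 22.4, 98.5, 47.2, 56.0, 201.3, 70.3 and 51.9. The groups did not overlap: the lowest beta-glucan library stood above control 10, the highest control. Library 7 was the highest of all, and controls 2 and 3 had only 6 and 22 reads. The mean was 507.0 ± 257.3 in beta-glucan and 69.3 ± 60.2 in control libraries (SD, n = 8 each), a ratio of 7.32, and the libraries of each group were uneven, with a coefficient of variation of 50.7% in beta-glucan and 86.8% in control libraries.

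The edgeR log2 fold change of Cdkn1c was 2.87 ± 0.44 (SE) and stayed between 2.62 and 3.32 with any 1 library left out. It was 2.54 without controls 2 and 3, 2.82 without controls 12 and 13, and 3.04 with TMM scaling. In the authors' deposited table the log2 fold change is 2.871 with an adjusted p of 8.02e-07. Cdkn1c has rank 80 by p among all listed genes and rank 1 by size among those listed as higher. Per length, Cdkn1c was at 13.86 ± 7.03 FPKM in beta-glucan and 1.90 ± 1.65 FPKM in control libraries. The gene (ENSMUSG00000037664) lies on the minus strand of chromosome 7 at 143458339-143461050 in mm10, and its exons sum to 2039 bases.

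Ccne2, the S phase cyclin, had 384.9, 305.1, 206.5, 355.6, 209.1, 171.4, 386.9 and 355.2 normalized counts in beta-glucan libraries 5, 6, 7, 8, 9, 10, 12 and 13. Controls 2, 3, 5, 7, 9, 10, 12 and 13 had 138.9, 141.2, 165.8, 179.0, 276.5, 240.2, 218.8 and 240.4. The groups overlapped: 5 beta-glucan libraries were above every control, but libraries 7, 9 and 10 lay among the controls. The means were 296.8 ± 88.2 in beta-glucan and 200.1 ± 51.1 in control libraries (SD, n = 8 each), and the log2 fold change was 0.57 ± 0.19 (SE). It was 0.43 without controls 2 and 3, which were the lowest controls here too, and 0.64 without controls 12 and 13. The authors' deposited table gives 0.568 with an adjusted p of 0.0266. Ccne2 (ENSMUSG00000028212, plus strand of chromosome 4, 11191351-11204779, exonic length 3495) was at 4.74 ± 1.41 FPKM in beta-glucan and 3.19 ± 0.815 FPKM in control libraries.

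Cenpf, the kinetochore gene, had 675.2, 541.9, 318.6, 431.6, 331.2, 304.1, 416.4 and 430.6 normalized counts in beta-glucan libraries 5, 6, 7, 8, 9, 10, 12 and 13. Controls 2, 3, 5, 7, 9, 10, 12 and 13 had 738.7, 718.2, 808.9, 545.7, 661.5, 562.7, 430.8 and 415.2. Of the beta-glucan libraries 3 (7, 9 and 10) were below every control and 7 below the control median, while controls 12 and 13 lay inside the beta-glucan range. The means were 431.2 ± 125.8 in beta-glucan and 610.2 ± 144.9 in control libraries (SD, n = 8 each), with a log2 fold change of -0.50 ± 0.17 (SE). It was -0.40 without controls 2 and 3 and -0.64 without controls 12 and 13. TMM scaling, which moves the median of all listed genes up by 0.19 (log2), gave -0.29. The authors' deposited table gives -0.5 with an adjusted p of 0.0319. Cenpf (ENSMUSG00000026605, minus strand of chromosome 1, 189640606-189688086, exonic length 15433) was at 1.56 ± 0.455 FPKM in beta-glucan and 2.20 ± 0.523 FPKM in control libraries.

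Mki67, the proliferation marker, had 4127.3, 3350.1, 2187.8, 2477.5, 1800.2, 1617.1, 2780.0 and 2071.0 normalized counts in beta-glucan libraries 5, 6, 7, 8, 9, 10, 12 and 13. Controls 2, 3, 5, 7, 9, 10, 12 and 13 had 4532.7, 5027.3, 4711.8, 2864.7, 3718.2, 3927.9, 2423.4 and 2280.7. Here 4 beta-glucan libraries (7, 9, 10 and 13) were below every control, beta-glucan library 5 was above 5 controls, and controls 12 and 13 were the lowest of their group. The means were 2551.4 ± 843.4 in beta-glucan and 3685.8 ± 1060.4 in control libraries (SD, n = 8 each), with a log2 fold change of -0.53 ± 0.20 (SE). It was -0.38 without controls 2 and 3, -0.69 without controls 12 and 13 and -0.32 with TMM scaling. The authors' deposited table gives -0.531 with an adjusted p of 0.0402. Mki67 (ENSMUSG00000031004, minus strand of chromosome 7, 135689784-135716361, exonic length 10061) was at 14.14 ± 4.67 FPKM in beta-glucan and 20.42 ± 5.88 FPKM in control libraries, the highest mean per length among the 4 genes in either group.

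**Figure D1:**
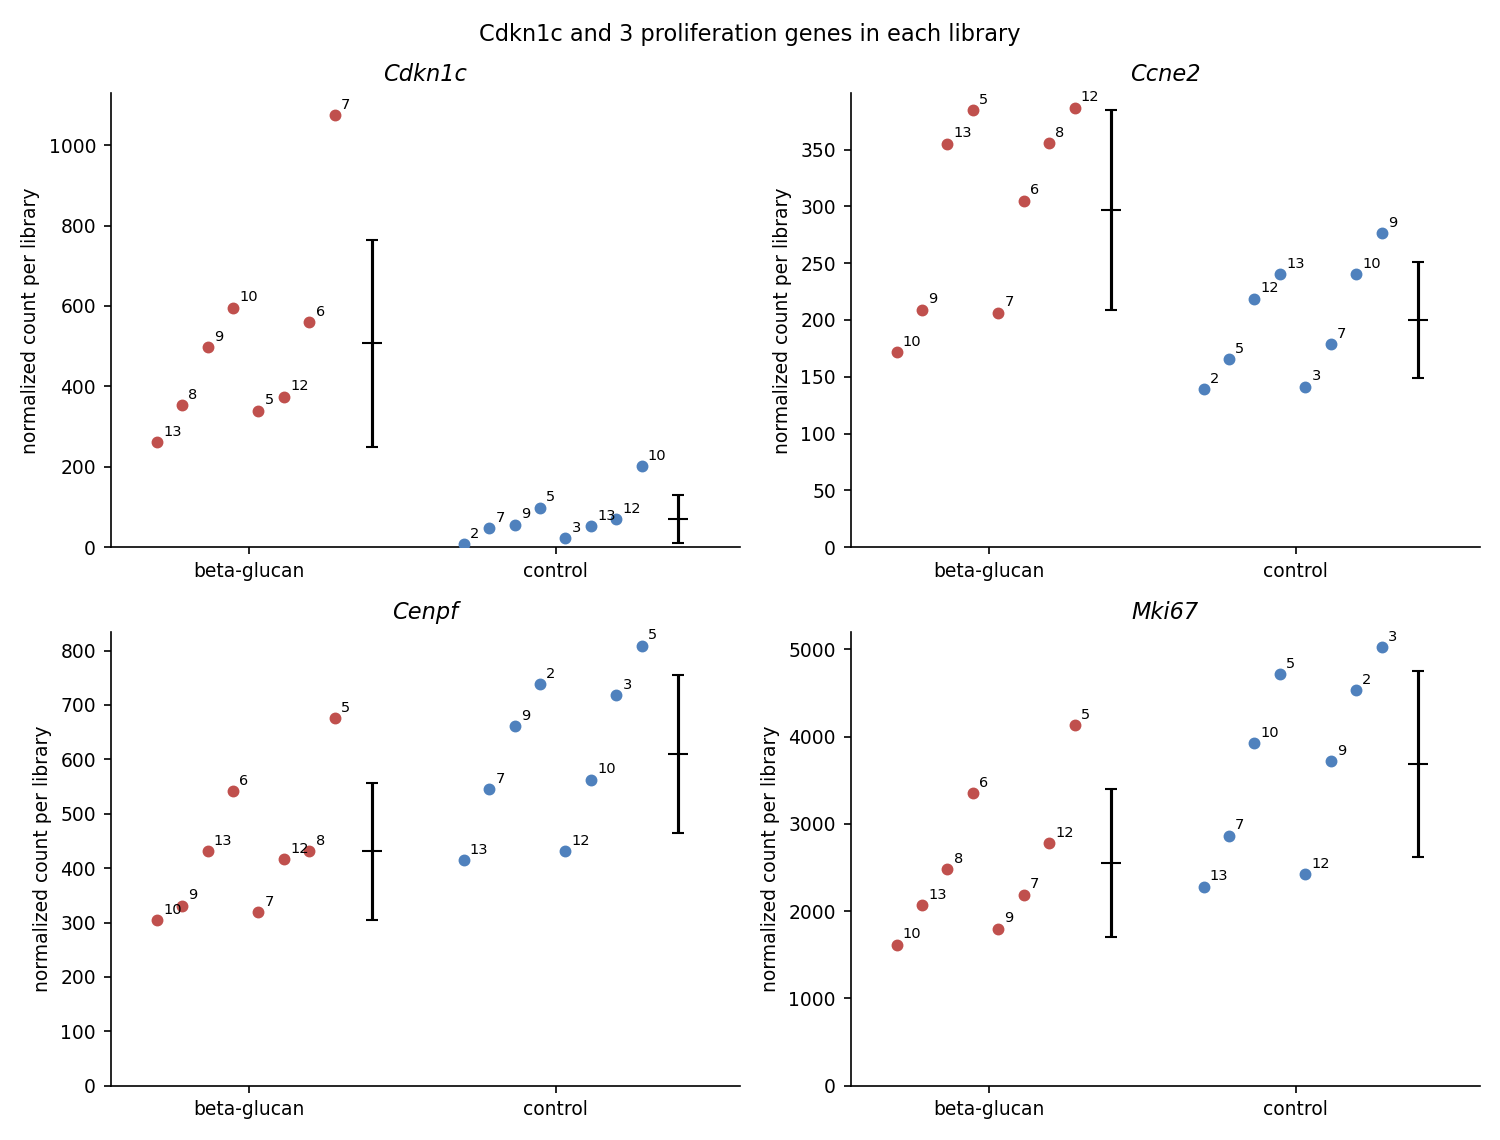
Normalized count (vertical axis, from 0) of Cdkn1c, Ccne2, Cenpf and Mki67 in each library, with the library number beside its point and the mean ± SD (n = 8) to the right of each group. Of the 4 genes, Cdkn1c is the 1 whose groups do not overlap, with 261.6 as the lowest beta-glucan value and 201.3 as the highest control value, and controls 12 and 13 lie at the low end of the controls for Cenpf and Mki67 but not for Cdkn1c.

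Nothing is read from the number of these 4 genes that differ, since they were picked from a list of genes that do. For scale, 6.3% of the 17130 genes tested were listed as higher and 11.6% as lower by the authors. Of the same 17130, edgeR called 4.14% higher and 6.85% lower. It was run on the listed genes only, so the others count as not called in every edgeR share given here. Of the 3071 listed genes, 7.52% had groups that did not overlap. In the authors' deposited table Ccne2, Cenpf and Mki67 sat close to the threshold, with an adjusted p between 0.0266 and 0.0402 where 0.0499 is the largest in the table. In the annotation GENCODE M21 each of the 4 genes overlaps another: Gm44732 for Cdkn1c, Ints8 for Ccne2, Gm37239 for Cenpf and Gm45240 for Mki67. None of these is in the deposited table. Whether the authors' counting used strand is not given in the sources used here, so reads shared with those genes cannot be told apart.

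Whether the inhibitor tracks the proliferation genes was then examined within each group, where the difference between the group means does not enter. The controls lay at -0.47 to 0.55 on the first principal component, where 1 is the beta-glucan mean. Spread within the controls thus ran partly along the difference that chose the genes, and its part in the correlations was not tested. Pearson's r of log2(normalized count + 1) was computed over 8 libraries for the 6 pairs in both groups, 12 relations in all, with an exact two-sided permutation test and Benjamini-Hochberg adjustment over the 12. After adjustment, 1 pair passed: Cenpf and Mki67 were correlated in the beta-glucan libraries (r = 0.93, exact permutation p = 0.00156, adjusted 0.00938) and in the control libraries (r = 0.95, exact permutation p = 0.000769, adjusted 0.00923). No pair with Cdkn1c passed.

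Cdkn1c and Mki67 had an r of -0.27 in beta-glucan libraries (exact permutation p = 0.526, adjusted 0.559) and -0.25 in control libraries (exact permutation p = 0.559, adjusted 0.559). Spearman's rho was -0.31 in beta-glucan (exact permutation p = 0.462, adjusted 0.554) and -0.14 in control libraries (exact permutation p = 0.752, adjusted 0.793). The library with the most Cdkn1c, beta-glucan 7, had a Mki67 value near the middle of its group, and control 10, with the most Cdkn1c among controls, had the fourth highest Mki67 there. Without the 2 libraries farthest from the Cdkn1c median, r was -0.56 in beta-glucan (without 13 and 7) and -0.23 in control libraries (without 10 and 2). Without controls 2 and 3, r in the remaining controls was 0.58, so even the sign in controls rested on those libraries.

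Cdkn1c and Cenpf had an r of -0.53 in beta-glucan (exact permutation p = 0.177, adjusted 0.235) and -0.31 in control libraries (exact permutation p = 0.464, adjusted 0.557). Spearman's rho was -0.64 in beta-glucan (exact permutation p = 0.0962, adjusted 0.165) and -0.12 in control libraries (exact permutation p = 0.793, adjusted 0.793). Leaving out those farthest libraries gave -0.53 in beta-glucan and -0.06 in control libraries, and the controls without 2 and 3 gave 0.28. An r of this size was common in these groups of 8: the middle 90% of the other 2377 genes had an r with Cdkn1c between -0.65 and 0.69 in beta-glucan libraries and between -0.67 and 0.66 in control libraries.

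Cdkn1c and Ccne2 had opposite signs in the groups. The r was -0.75 in beta-glucan libraries (exact permutation p = 0.0257, adjusted 0.0772) and 0.65 in control libraries (exact permutation p = 0.0724, adjusted 0.145), with a rho of -0.74 in beta-glucan (exact permutation p = 0.0458, adjusted 0.165) and 0.52 in control libraries (exact permutation p = 0.197, adjusted 0.262). Beta-glucan libraries 7, 9 and 10, which with library 6 had the most Cdkn1c, had the least Ccne2, and 5, 8, 12 and 13 the reverse. Among controls, 2 and 3 were the lowest in both genes, and without them r was 0.01. Leaving out the 2 libraries farthest from the Cdkn1c median gave -0.83 in beta-glucan and 0.38 in control libraries. Neither value passed the adjustment, and the difference between the groups' correlations was not tested.

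**Figure D2:**
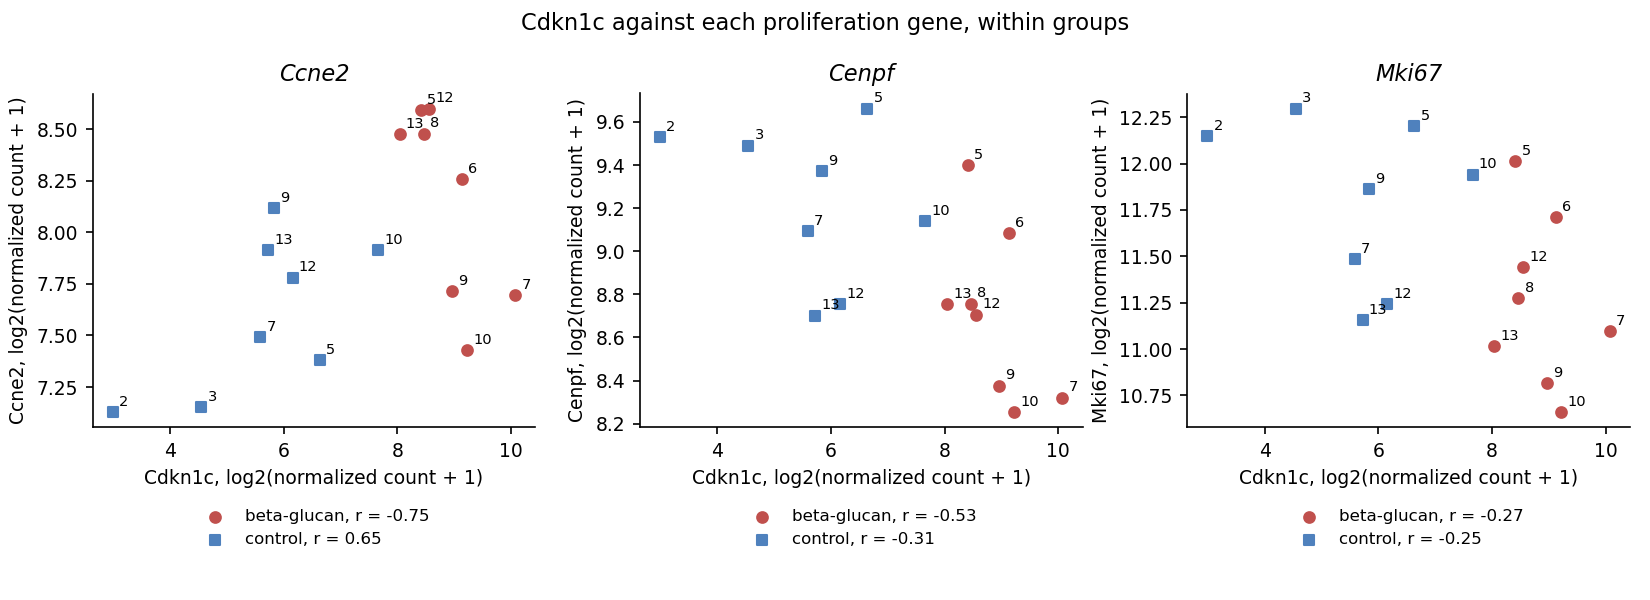
Ccne2, Cenpf and Mki67 (vertical axes) against Cdkn1c (horizontal axes), all as log2(normalized count + 1), 1 point per library with its number, circles for beta-glucan and squares for control. The groups are set apart along Cdkn1c, and within a group r ran between -0.75 (Ccne2, beta-glucan) and 0.65 (Ccne2, control).

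The mitotic pair was the 1 that passed among the proliferation genes. For Cenpf and Mki67, beta-glucan 5 and 6 were the highest and 10 and 9 among the lowest of their group in both genes, and controls 12 and 13 the lowest of theirs. Spearman's rho was 0.83 in beta-glucan (exact permutation p = 0.0154, adjusted 0.0923) and 0.90 in control libraries (exact permutation p = 0.00456, adjusted 0.0548). Without the 2 libraries farthest from the Cenpf median, r was 0.80 in beta-glucan (without 10 and 5, exact permutation p = 0.0542) and 0.82 in control libraries (without 12 and 13, exact permutation p = 0.0389). The sign held, but the beta-glucan relation then no longer passed 0.05 unadjusted, with 6 libraries left. Whether that comes from those libraries or from their smaller number was not tested. The r ranked above 99.7% of the other listed genes' r with Cenpf in beta-glucan and 98.5% in control libraries, where high values were common (the middle 90% ran from -0.88 to 0.91).

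Ccne2 had an r of 0.79 with Cenpf (exact permutation p = 0.0242, adjusted 0.0772) and 0.73 with Mki67 (exact permutation p = 0.0458, adjusted 0.11) in beta-glucan libraries. In control libraries it had -0.58 (exact permutation p = 0.134, adjusted 0.205) and -0.57 (exact permutation p = 0.137, adjusted 0.205). Spearman's rho was 0.69 and 0.71 in beta-glucan libraries (exact permutation p = 0.0694 and 0.0576, adjusted 0.165 each), and -0.62 and -0.67 in control libraries (exact permutation p = 0.115 and 0.0831, adjusted 0.172 and 0.165). Without the 2 libraries farthest from the Ccne2 median these became 0.59 and 0.59 in beta-glucan libraries and -0.35 and -0.22 in control libraries. None passed the adjustment, and the difference between groups was not tested here either.

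Likeness to other genes was ranked by the lower of the 2 within-group r values over 8 libraries each, among the 2378 listed genes with a mean normalized count of at least 50. It is a description without a test. Nearest to Cdkn1c were Cd200, an inhibitory surface glycoprotein (r = 0.78 in beta-glucan and 0.77 in control libraries), the small GTPase gene Rhob (0.74 in beta-glucan, 0.80 in control), Lhfpl2 (0.74 in beta-glucan, 0.74 in control), the G protein subunit gene Gng4 (0.74 in beta-glucan, 0.75 in control) and Pwp2, a gene of ribosome assembly (0.73 in beta-glucan, 0.83 in control). Running opposite to it were the metalloproteinase Mmp27 (-0.85 in beta-glucan, -0.87 in control) and the leukotriene receptor Cysltr1 (-0.74 in beta-glucan, -0.84 in control). In that order over 2377 genes, Mki67 came at rank 1194, Cenpf at 1865 and Ccne2 at 2269.

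Mki67 had Cenpf at rank 1, followed by Oplah, an enzyme of glutathione turnover (0.92 in both groups), Mtr, methionine synthase (0.94 in beta-glucan and 0.91 in control libraries), the mitotic kinesin Kif14 (0.89 in beta-glucan, 0.90 in control) and Cmah (0.88 in beta-glucan, 0.92 in control). Opposite to it were Pea15a (-0.93 in beta-glucan, -0.92 in control), the stress transcription factor Atf3 (-0.90 in beta-glucan, -0.94 in control) and the galectin Lgals3 (-0.82 in beta-glucan, -0.85 in control).

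The other genes of the cell cycle machinery were read from 5 lists. Besides the 4 genes, these hold 186 names, of which 17 were in the deposited table, 4 listed as higher (2.15%) and 13 as lower (6.99%), against 6.3% and 11.6% of all tested genes. In edgeR 1 rose (0.538%, against 4.14% of all genes) and 9 fell (4.84%, against 6.85%). These shares are not above those of all tested genes, so the lists as a whole are no result. The median log2 fold change of the 17 was -0.46, against -0.41 for all listed genes that passed the count filter. The split of the calls depended on scaling: with TMM, and likewise with size factors recomputed on the listed genes, 4 rose and 2 fell, while over all listed genes TMM gave 1036 higher and 528 lower, against 709 and 1173 with the deposited factors. Both scalings take most genes as unchanged. They were computed from the listed genes alone, all past the authors' threshold and 64.9% of them lower, so they cannot decide which split is right. Without controls 2 and 3 none of the 10 calls held, and Cdkn1a alone passed, whereas 1 rose and 11 fell without controls 12 and 13.

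Of the other CDK inhibitors, 1 of 7 was in the table, listed as higher (14.3%, against 6.3% of all tested genes). Cdkn1a, which blocks CDK2 downstream of p53, had 6292.7 to 7494.7 normalized counts in beta-glucan (median 6662.8) and 4447.7 to 6997.5 in control libraries (median 5486.9). Every beta-glucan library was above the control median, but controls 2 and 3 were inside the beta-glucan range. Its log2 fold change of 0.27 ± 0.09 did not pass (edgeR adjusted p = 0.0593). Per length it was far more abundant than Cdkn1c, at 105.7 ± 6.80 FPKM in beta-glucan and 87.5 ± 13.2 FPKM in control libraries (SD, n = 8 each).

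Of 23 other cyclins, CDKs and their regulators, 2 were in the table, listed as lower (8.7%, against 11.6% of all tested genes). In edgeR 1 fell (4.35%, against 6.85%). Cdc25b, the phosphatase that activates CDK1, averaged 713.0 ± 110.2 normalized counts in beta-glucan and 894.4 ± 94.0 in control libraries (log2 fold change -0.33 ± 0.10, edgeR adjusted p = 0.0439, and still past 0.05 in 5 of 16 fits with 1 library left out). Ccnd2, a G1 cyclin induced by growth factors, averaged 154.1 ± 60.8 in beta-glucan and 255.6 ± 93.7 in control libraries (log2 fold change -0.73 ± 0.26, edgeR adjusted p = 0.0753) and did not pass. Of 19 E2F, pocket protein and DREAM genes, Foxm1, which drives late cell cycle genes, was the 1 in the table. That is 5.26% listed as lower and called lower in edgeR, below the 11.6% and 6.85% of all tested genes. Foxm1 is thus no result of its list. Foxm1 averaged 437.7 ± 103.6 in beta-glucan and 599.7 ± 78.7 in control libraries (log2 fold change -0.45 ± 0.13, edgeR adjusted p = 0.0345, 7 of 16 fits).

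The genes of DNA replication in the table, 3 of 56, were listed as higher (5.36%, against 6.3% of all tested genes). Ccne2 and 35.1% of all listed genes had higher values in beta-glucan libraries too. Rpa1, which coats single-stranded DNA, averaged 2186.0 ± 273.2 normalized counts in beta-glucan and 1825.0 ± 116.1 in control libraries and rose (log2 fold change 0.26 ± 0.08, edgeR adjusted p = 0.047, 3 of 16 fits). Orc2, of the origin recognition complex, averaged 444.9 ± 31.8 in beta-glucan and 362.0 ± 66.6 in control libraries (log2 fold change 0.30 ± 0.11, edgeR adjusted p = 0.0835) and did not pass. In edgeR the list stood at 1.79% higher, against 4.14% of all tested genes, and with TMM all 3 passed.

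The mitosis genes in the table all had lower values in beta-glucan libraries. Of 81 besides Cenpf and Mki67, 10 were listed, all lower (12.3%, against 11.6% of all tested genes), and 7 fell in edgeR (8.64%, against 6.85%), with a median log2 fold change of -0.52. Of all listed genes 64.9% were lower, and the direction of these 10 was not tested against that share. The signs of all 10 held with TMM, where 2 of them passed. Cenpa, the histone variant that marks centromeres, had 407.9 to 967.2 normalized counts in beta-glucan (median 582.0) and 545.7 to 1492.4 in control libraries (median 1063.2). Every beta-glucan library was below the control median, and the ranges overlapped. Its log2 fold change was -0.86 ± 0.20 (edgeR adjusted p = 0.0118).

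Ncapg2, a subunit of condensin II, had 779.5 to 1536.5 in beta-glucan (median 919.7) and 1136.5 to 2249.0 in control libraries (median 1810.0), a log2 fold change of -0.73 ± 0.17 (edgeR adjusted p = 0.0116). Its lowest controls were 12 and 13. Ncapd2, of condensin I (-0.46 ± 0.11, edgeR adjusted p = 0.0115), and Numa1, which anchors spindle poles (-0.54 ± 0.14, edgeR adjusted p = 0.0161), fell too. These 4 passed in every fit with 1 library left out. Ckap5, a microtubule polymerase (-0.44 ± 0.13, edgeR adjusted p = 0.031), passed in 8 of the 16 fits and the spindle gene Aspm (-0.54 ± 0.16, edgeR adjusted p = 0.0398) in 6. Espl1, separase, named as the remaining call (-0.62 ± 0.20, edgeR adjusted p = 0.0473), passed in 3. Kif14 (-0.47 ± 0.17, edgeR adjusted p = 0.0831), the kinase gene Cit (-0.50 ± 0.17, edgeR adjusted p = 0.0653) and the cohesin loader gene Nipbl (-0.42 ± 0.15, edgeR adjusted p = 0.0759) did not pass.

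**Figure D3:**
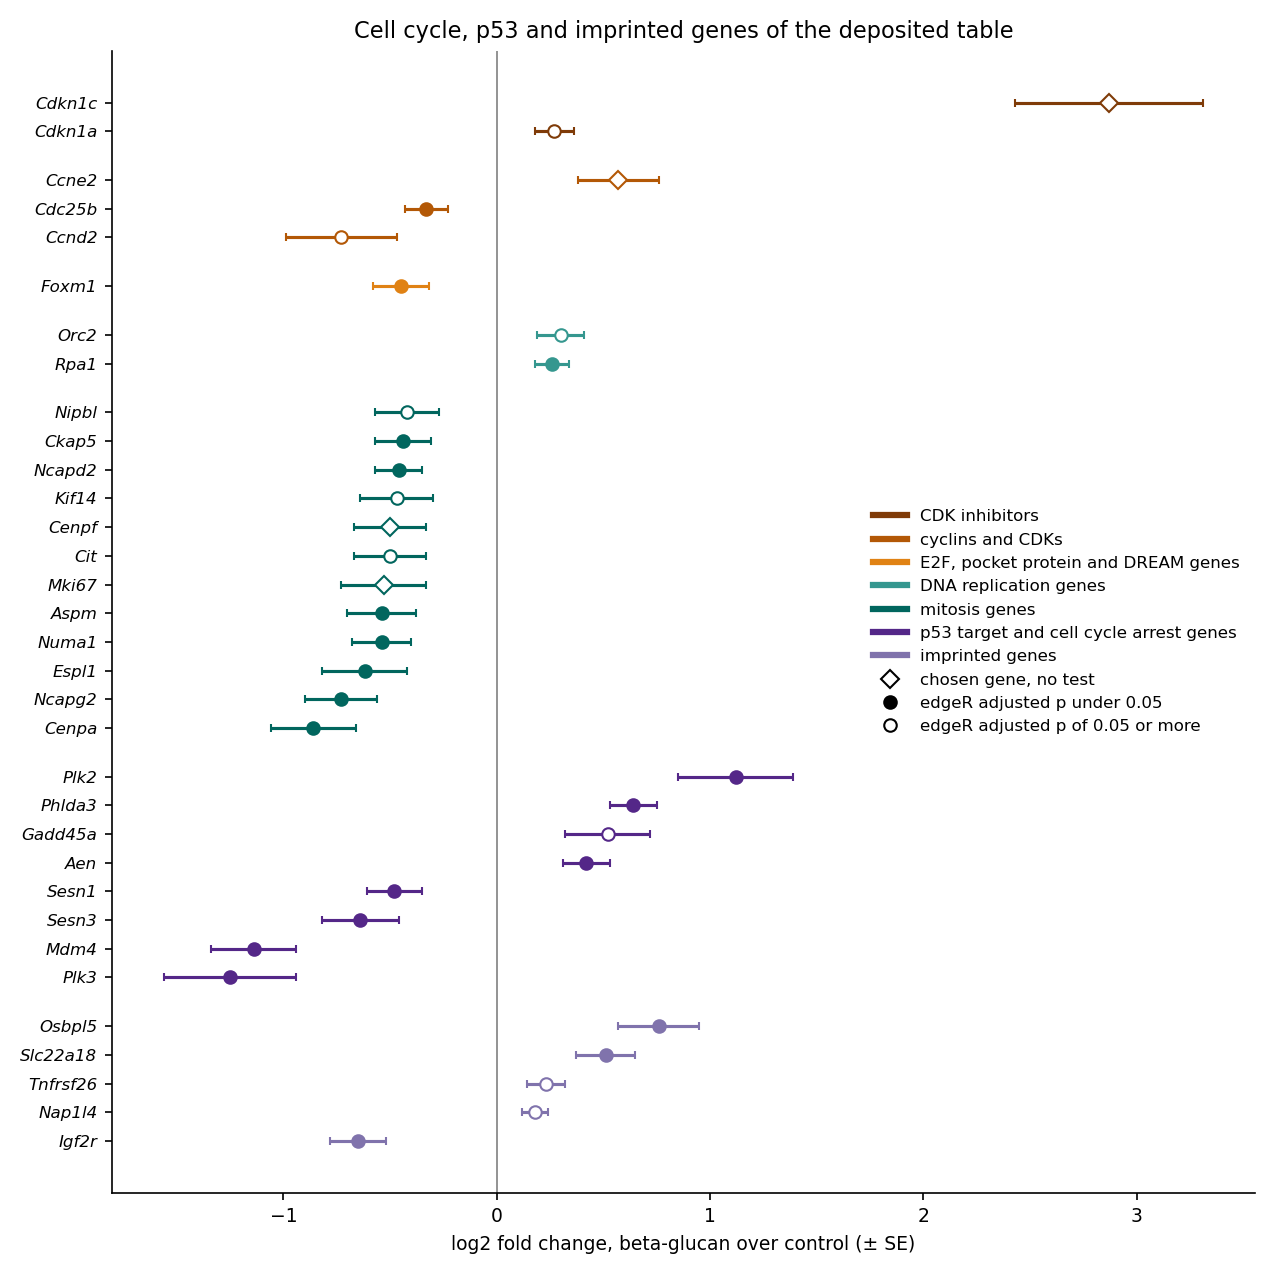
Log2 fold change of beta-glucan over control ± SE from edgeR (horizontal axis, deposited size factors) for genes of 7 lists that are in the deposited table. Open diamonds are Cdkn1c, Ccne2, Cenpf and Mki67, shown without a test, filled circles passed an adjusted p of 0.05 and open circles did not. All mitosis genes shown lie below 0, the DNA replication genes above it, and Cdkn1c (2.87) lies apart from the rest. Of all listed genes 64.9% were lower and 35.1% higher.

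Within groups, the mitosis genes were then set against Mki67 and Cdkn1c. With Mki67, all 10 had a positive r in both groups (0.10 to 0.90, median 0.56, in beta-glucan libraries and 0.05 to 0.91, median 0.80, in control libraries). Of the 10 mitosis genes, 8 were negative and 2 positive with Cdkn1c in beta-glucan libraries (median -0.58, from -0.86 for Espl1 to 0.58 for Numa1). In control libraries 7 were negative and 3 positive (median -0.24, from -0.55 for Cenpa to 0.25). Cenpa was negative in both groups, with -0.83 in beta-glucan and -0.55 in control libraries. Outside the mitosis list, Foxm1 had -0.69 in beta-glucan and 0.15 in control libraries with Cdkn1c, opposite signs as for Ccne2. Cdkn1a, the related inhibitor, had 0.35 in beta-glucan and -0.80 in control libraries. These values describe 8 libraries each, share depth and scaling, and carry no test.

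**Figure D4:**
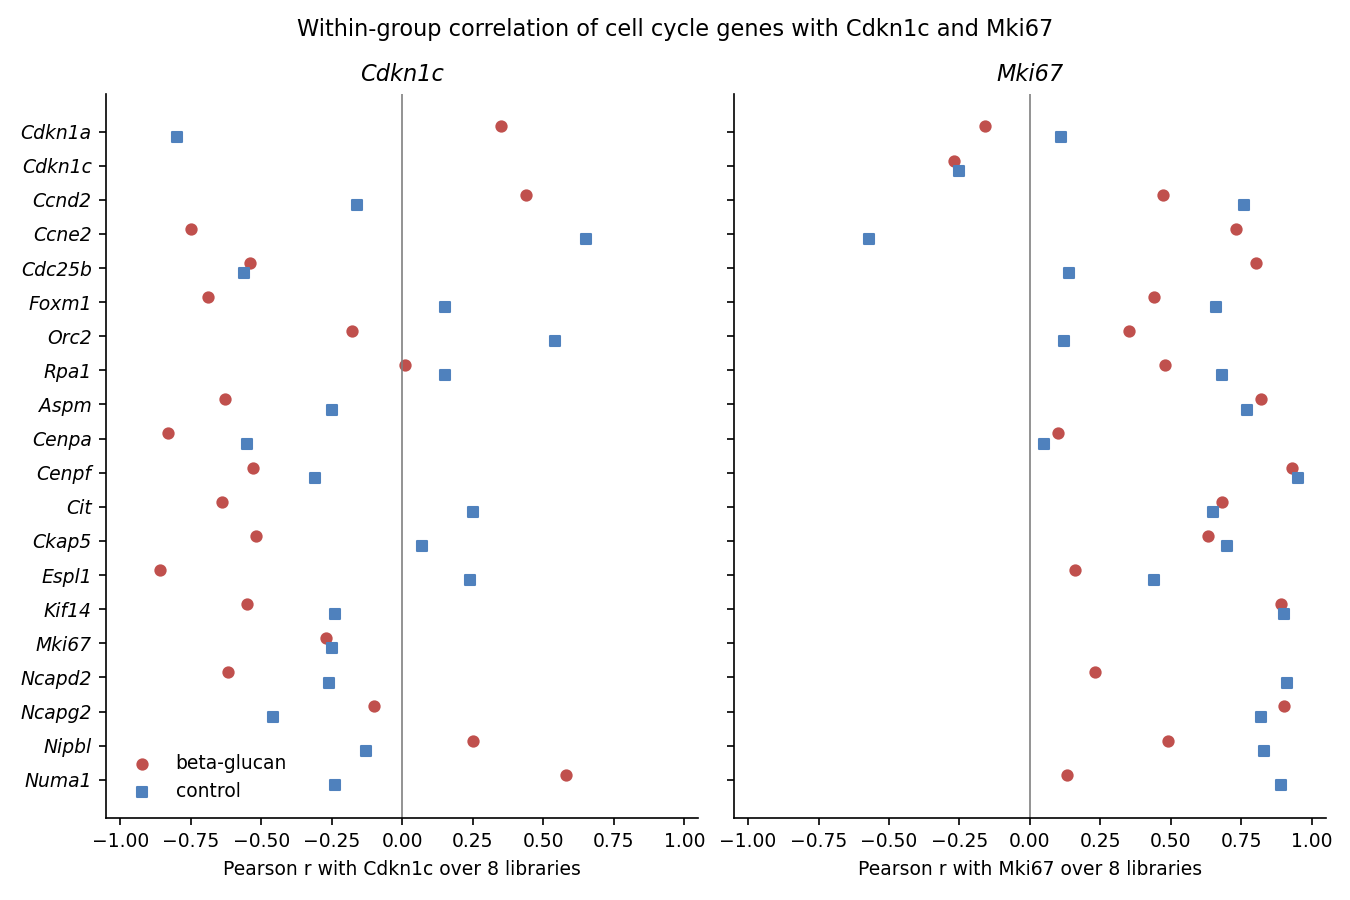
Pearson r over 8 libraries of cell cycle genes in the deposited table with Cdkn1c (left) and with Mki67 (right), circles for beta-glucan and squares for control libraries. With Mki67 every mitosis gene lies right of 0 in both groups, where 49.6% (beta-glucan) and 57.1% (control) of the other 2377 genes do. With Cdkn1c beta-glucan values run from -0.86 to 0.58.

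Targets of p53 and other genes of arrest, a list that also holds the p53 inhibitor Mdm4, went both ways. Of 32, 8 were in the table, 4 higher and 4 lower. In edgeR 3 rose (9.38%, against 4.14% of all genes) and 4 fell (12.5%, against 6.85%), and the median log2 fold change was -0.03. Phlda3, a p53 target that restrains Akt, had 814.4 to 1155.4 normalized counts in beta-glucan (median 1010.3) and 517.3 to 910.4 in control libraries (median 612.2), with only control 12 inside the beta-glucan range, and rose (0.64 ± 0.11, edgeR adjusted p = 0.00242). Mdm4, which inhibits p53, had 299.7 to 809.3 in beta-glucan (median 542.3) and 815.9 to 1833.9 in control libraries (median 1015.8). Its groups did not overlap, and it fell (-1.14 ± 0.20, edgeR adjusted p = 0.0027). The polo-like kinases split: Plk2 rose (1.12 ± 0.27, edgeR adjusted p = 0.0133), and Plk3 fell (-1.25 ± 0.31, edgeR adjusted p = 0.0142). Without controls 2 and 3 neither kinase passed (Plk2 0.94, edgeR adjusted p = 0.0625, and Plk3 -0.84, edgeR adjusted p = 0.0941), while Phlda3 (0.62, edgeR adjusted p = 0.0155) and Mdm4 (-1.02, edgeR adjusted p = 0.0182) did.

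Cdkn1c is imprinted, and its chromosome neighbourhood was looked at for that reason. Of 44 imprinted genes, 6 were in the table, 4 higher and 2 lower, and 5 passed the count filter. In edgeR 2 rose (4.55%, against 4.14%) and 1 fell (2.27%, against 6.85%). Osbpl5, an oxysterol-binding protein gene, had 84.1 to 187.8 normalized counts in beta-glucan (median 146.1) and 61.0 to 114.7 in control libraries (median 79.4), and rose (0.76 ± 0.19, edgeR adjusted p = 0.0145). Slc22a18, a transporter gene next to Cdkn1c, had 172.8 to 309.3 in beta-glucan (median 227.0) and 108.5 to 192.0 in control libraries (median 160.6), and rose (0.51 ± 0.14, edgeR adjusted p = 0.0283, 11 of 16 fits). Nap1l4 (0.18 ± 0.06, edgeR adjusted p = 0.0682) did not pass. Igf2r, a maternally expressed gene on another chromosome, fell (-0.65 ± 0.13, edgeR adjusted p = 0.00501). Without controls 2 and 3 Igf2r still passed (-0.60, edgeR adjusted p = 0.028), but Osbpl5 (0.65, edgeR adjusted p = 0.0736) and Slc22a18 (0.52, edgeR adjusted p = 0.0723) did not.

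Within 1 Mb of Cdkn1c, a window chosen after the values were seen, GENCODE M21 places 29 coding genes, Cdkn1c included, and 5 genes besides Cdkn1c were in the deposited table, which lists 17.9% of all tested genes. All 5 lie at higher coordinates and were listed as higher, where 35.1% of all listed genes were. By the authors' deposited table their log2 fold changes were 0.506 for Slc22a18 at 12.7 kb, 0.179 for Nap1l4 at 52.5 kb, 0.234 for Tnfrsf26 at 146.6 kb, 0.759 for Osbpl5 at 227.7 kb and 0.53 for Mrgpre at 317.3 kb. Against 2.871 for Cdkn1c these are small. Mki67, on the same chromosome, lies 7.74 Mb away and has the opposite sign.

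**Figure D5:**
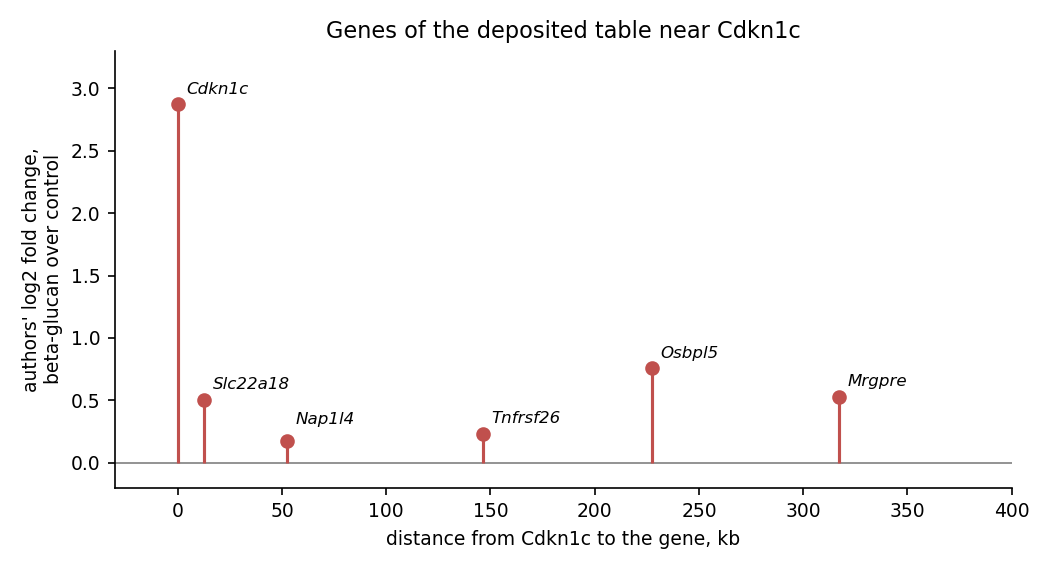
Log2 fold change of beta-glucan over control in the authors' deposited table (vertical axis) against distance from Cdkn1c in kb (horizontal axis) for Cdkn1c and the 5 other listed genes within 1 Mb. All 6 are above 0, with Cdkn1c at 2.871 and the neighbours between 0.179 and 0.759.

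The authors' deposited enrichment tables place the 4 genes as follows. Cdkn1c and Ccne2 are in the KEGG term Cell cycle, of which 19 of 121 genes were listed (15.7%, against 18.3% over all terms), 11 higher and 8 lower, with an authors' adjusted p of 1. The KEGG term DNA replication had 2 of 35 listed (5.7%, against 18.3% over all terms), both higher. The GO term mitotic nuclear division, with Cdkn1c and Mki67, had 55 of 239 listed (23.0%, against 17.4% over all such terms, 24 higher, 31 lower, the authors' deposited adjusted p 0.395), and chromosome segregation, with Ccne2, Cenpf and Mki67, had 53 of 291 (18.2%, 18 higher, 35 lower, adjusted p 0.807). Cell cycle arrest, with Cdkn1c, had 24 of 126 (7 higher, 17 lower, adjusted p 0.782). The smallest adjusted p of any term in the authors' deposited tables was 0.395 for those with Cdkn1c, 0.0943 with Ccne2, 0.236 with Mki67 and 0.0269 with Cenpf, the last for nuclear envelope.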

How the data were processed

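RNA sequencing libraries of bone marrow-derived macrophages were analysed from the deposited comparison table. Per the submitters' processing notes, CASAVA, STAR 2.5, HTSeq 0.6.1, DESeq2 and mm10 were used, and neither annotation release nor strand setting is given in the sources used here. Read counts as deposited are unnormalized whole numbers. The deposited normalized counts, a signal, are those counts divided by 1 size factor per library. The deposited FPKM values divide them by gene length (another deposited column) and 17937135 reads. The authors' log2 fold changes are beta-glucan over control, and the authors' p-values, with Benjamini-Hochberg adjustment, imply 17130 tested genes, of which the 3071 under 0.05 are listed. The 14059 others were not used. The authors' enrichment tables hold p-values and numbers of genes for each term.

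edgeR 4.0.16 in R 4.3.3 (glmQLFit, glmQLFTest, filterByExpr, two-sided, deposited size factors) was fitted to all listed genes, of which 2738 passed the count filter, with adjustment over 17130. Every listed gene had already passed in the same data, so these tests are no independent evidence. The 4 genes, the gene lists and the tests were chosen with earlier results of these data known. Named genes are up to 6 called per cell cycle list and up to 4 per p53 and imprinted list, by p, and the 5 most alike and 3 most opposite to Cdkn1c and Mki67; other genes of the lists are named to complete small counts. Values of 2 genes under these rules are not reported here. Correlations used a pseudocount of 1 (Python 3.11.15, scipy 1.17.1). Alternatives were TMM and other size factors (both computed from the listed genes alone), DESeq2 1.42.0, no count filter, the replicate number as a block and left-out libraries. The edgeR step was tested on simulated data. The labels do not tie libraries to separate mice or cultures, and the p-values therefore cover just the spread among these libraries, which may be technical. Promoters are RefSeq's; positions are those of the deposited table, which for the 4 genes equal GENCODE M21. Among the 4 genes the lowest counts were the 6 and 22 reads of Cdkn1c in controls 2 and 3.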

Additional observations from a re-analysis of the deposited data

Results flagged for a closer look

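Of 42 groups of 8 libraries (21 cell cycle genes in 2 groups), 4 had a sample far from the others, meaning that its gap to the nearest library exceeded 0.526 of the range of the group. For normally distributed values chance alone gives that in about 1 of 20 groups. The gap was measured on normalized counts without a log, and each of the 4 samples was the highest of its group. Whether they also stand apart on the log2 scale of the correlations was not tested. Cdkn1c had 1075.2 normalized counts in beta-glucan library 7, against 261.6 to 596.1 in the other beta-glucan libraries. It had 201.3 in control library 10, against 6.95 to 98.5 in the other controls. Cenpa had 967.2 in beta-glucan library 13, against 407.9 to 672.3 in the others of its group. Espl1 had 614.0 in control library 5, against 341.4 to 393.6 in the other controls. The causes were not tested.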

How the results depend on the processing

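The log2 fold changes of Cdkn1c, Ccne2, Cenpf and Mki67 kept their sign under each alternative run. With the replicate number as a block, over just the libraries whose number occurs in both groups, they were 2.58, 0.32, -0.48 and -0.47. The same libraries without the block gave 2.59, 0.38, -0.47 and -0.45. Counts of called genes moved. Among cell cycle genes other than these 4, 1 was higher and 9 lower. TMM and size factors computed anew, both from the listed genes alone, gave 4 higher and 2 lower each. DESeq2 gave 4 higher and 13 lower, all 17 of those listed, and no count filter gave 2 higher and 9 lower. Leaving out 1 library gave 0 to 1 higher and 4 to 13 lower. Over all listed genes, 709 were higher and 1173 lower; TMM gave 528 lower, new size factors 510, DESeq2 1886, and leaving out 1 library 381 to 871 higher and 769 to 1405 lower. Without controls 2 and 3 there were 0 lower cell cycle genes (15 of the 17 at an unadjusted p under 0.05 in edgeR in either direction; DESeq2 was not run on that subset), 184 genes higher and 445 lower.

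Whether numbers shared between groups mark a shared mouse or batch is not given in the labels. Same-numbered deviations had r from -0.15 to 0.54, and 1 of 6 numbers, 5, had its own as best match. Beta-glucan 12 was closest to control 13 (0.48) and beta-glucan 13 to control 12 (0.37), while 7, 9 and 10 were closest to controls 10, 5 and 5. A comparison of 6 numbers cannot decide whether the libraries were paired. The replicate block over 12 libraries gave 0 higher and 1 lower cell cycle genes (Ncapg2) and 111 higher and 244 lower in all. The same 12 without the block, added after seeing the data, gave 0, 0, 24 and 44 (13 cell cycle genes at an unadjusted p under 0.05).

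Among correlations, Cdkn1c with Cenpf and with Mki67 in controls reversed to 0.28 and 0.58 without controls 2 and 3. The Cenpf and Mki67 relation lost its adjusted call as Spearman's rho (0.83 in beta-glucan, 0.90 in control libraries), in controls without 12 and 13 (0.82) or without the 2 farthest from the Cdkn1c median (0.97), and in beta-glucan without library 5 or 6, with r from 0.86 to 0.96 over left-out libraries. With fewer libraries the smallest p also grows. The other causes were not tested. Alternatives for pairs without Cdkn1c were added after seeing the data.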
